A study of Mus musculus with 10 samples.

Results

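The contactins and the contactin-associated proteins were followed across 10 pools of mouse vagal sensory neurons. The 9 genes were taken by symbol from the 24421 rows of the count tables: *Cntn1*, *Cntn2*, *Cntn3*, *Cntn4*, *Cntn5* and *Cntn6* for the contactins, and *Cntnap1*, *Cntnap2* and *Cntnap4* for the contactin-associated proteins. They were chosen with their levels in these same pools known, so their levels and differences are given as a description.

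Contactins are cell-adhesion molecules of the immunoglobulin superfamily that are held at the axon surface by a lipid anchor, and contactin-associated proteins (the Caspr family) are transmembrane partners that dock beside them. In myelinated axons, contactin-1 and Caspr, the product of *Cntnap1*, build the paranodal junction that flanks each node of Ranvier. Contactin-2 (also called TAG-1) and Caspr2, the product of *Cntnap2*, gather Kv1 potassium channels in the neighbouring juxtaparanode. The remaining contactins act mainly in neurite growth and synapse formation, and Caspr4, the product of *Cntnap4*, is known from the synapses of inhibitory neurons. C-fibre axons carry no myelin.

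Pools of a small number of neurons were collected by hand from dissociated mouse vagal ganglia, in 5 groups of 2 pools each. The nodose ganglion is derived from placodes and the jugular ganglion from the neural crest, and the 2 are fused in the mouse, so nodose neurons came from the caudal end and jugular neurons from the rostral end. In the first selection, neurons came from Trpv1-tdTomato mice, in which Cre made from the *Trpv1* gene switches on the red reporter tdTomato. The groups were Trpv1-positive nodose neurons, Trpv1-positive jugular neurons and Trpv1-negative nodose neurons, the last in smaller pools. The reporter stays on once Cre has acted, so it marks neurons that express *Trpv1* now or did so earlier. In the second selection, neurons of C57BL/6 mice were taken by their calcium response. Nodose capsaicin neurons responded to capsaicin, the TRPV1 agonist, and to the P2X agonist α,β-methylene ATP, whereas jugular capsaicin neurons gave no response to the P2X agonist and responded to capsaicin alone. The 6 pools of the Trpv1 selection were taken from the same 2 mice, so that their 3 groups share animals. The sources used here give no age of the mice and do not say which pool came from which mouse, and the spread between the pools of a group may be partly technical.

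Total counts ranged from 148452506 to 167704327 per pool in the Trpv1 selection and from 17666710 to 30810863 in the capsaicin selection. Genes with at least 1 count numbered between 12153 and 13029 per pool in the Trpv1 selection and between 7889 and 10010 in the capsaicin selection. The pools of the 2 selections were also processed at different sequencing cores. Per the methods of the study, each capsaicin pool also held fewer neurons than each Trpv1-positive pool. Strain, way of selection, core, depth and, beside the Trpv1-positive pools, pool size therefore differed together and cannot be told apart. Levels are given as CPM, the usual depth-scaled unit, after scaling all 10 pools together with size factors. The 5 neuronal markers *Snap25*, *Tubb3*, *Uchl1*, *Elavl4* and *Stmn2* each reached at least 10 CPM in every pool. The nodose markers (*P2rx2* and *Hoxb5*) summed to at most 0.535 CPM in the jugular pools, and the jugular markers (*Prdm12* and *Tac1*) summed to at most 1.19 CPM in the nodose pools. *Trpv1* had 9 and 8 counts in the Trpv1-negative pools, or 0.0431 and 0.0413 CPM. Markers of Schwann cells and satellite glia, cells that can themselves make members of these families, summed to between 1960 and 5037 CPM, with between 5 and 7 of 12 at 10 CPM or more. Among them *Mag*, a defining gene of myelinating glia, had no count in any pool. The part of glial RNA in the levels below was not tested. In such pools, fewer neurons with a transcript and less transcript per neuron cannot be told apart.

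**Figure D1:**
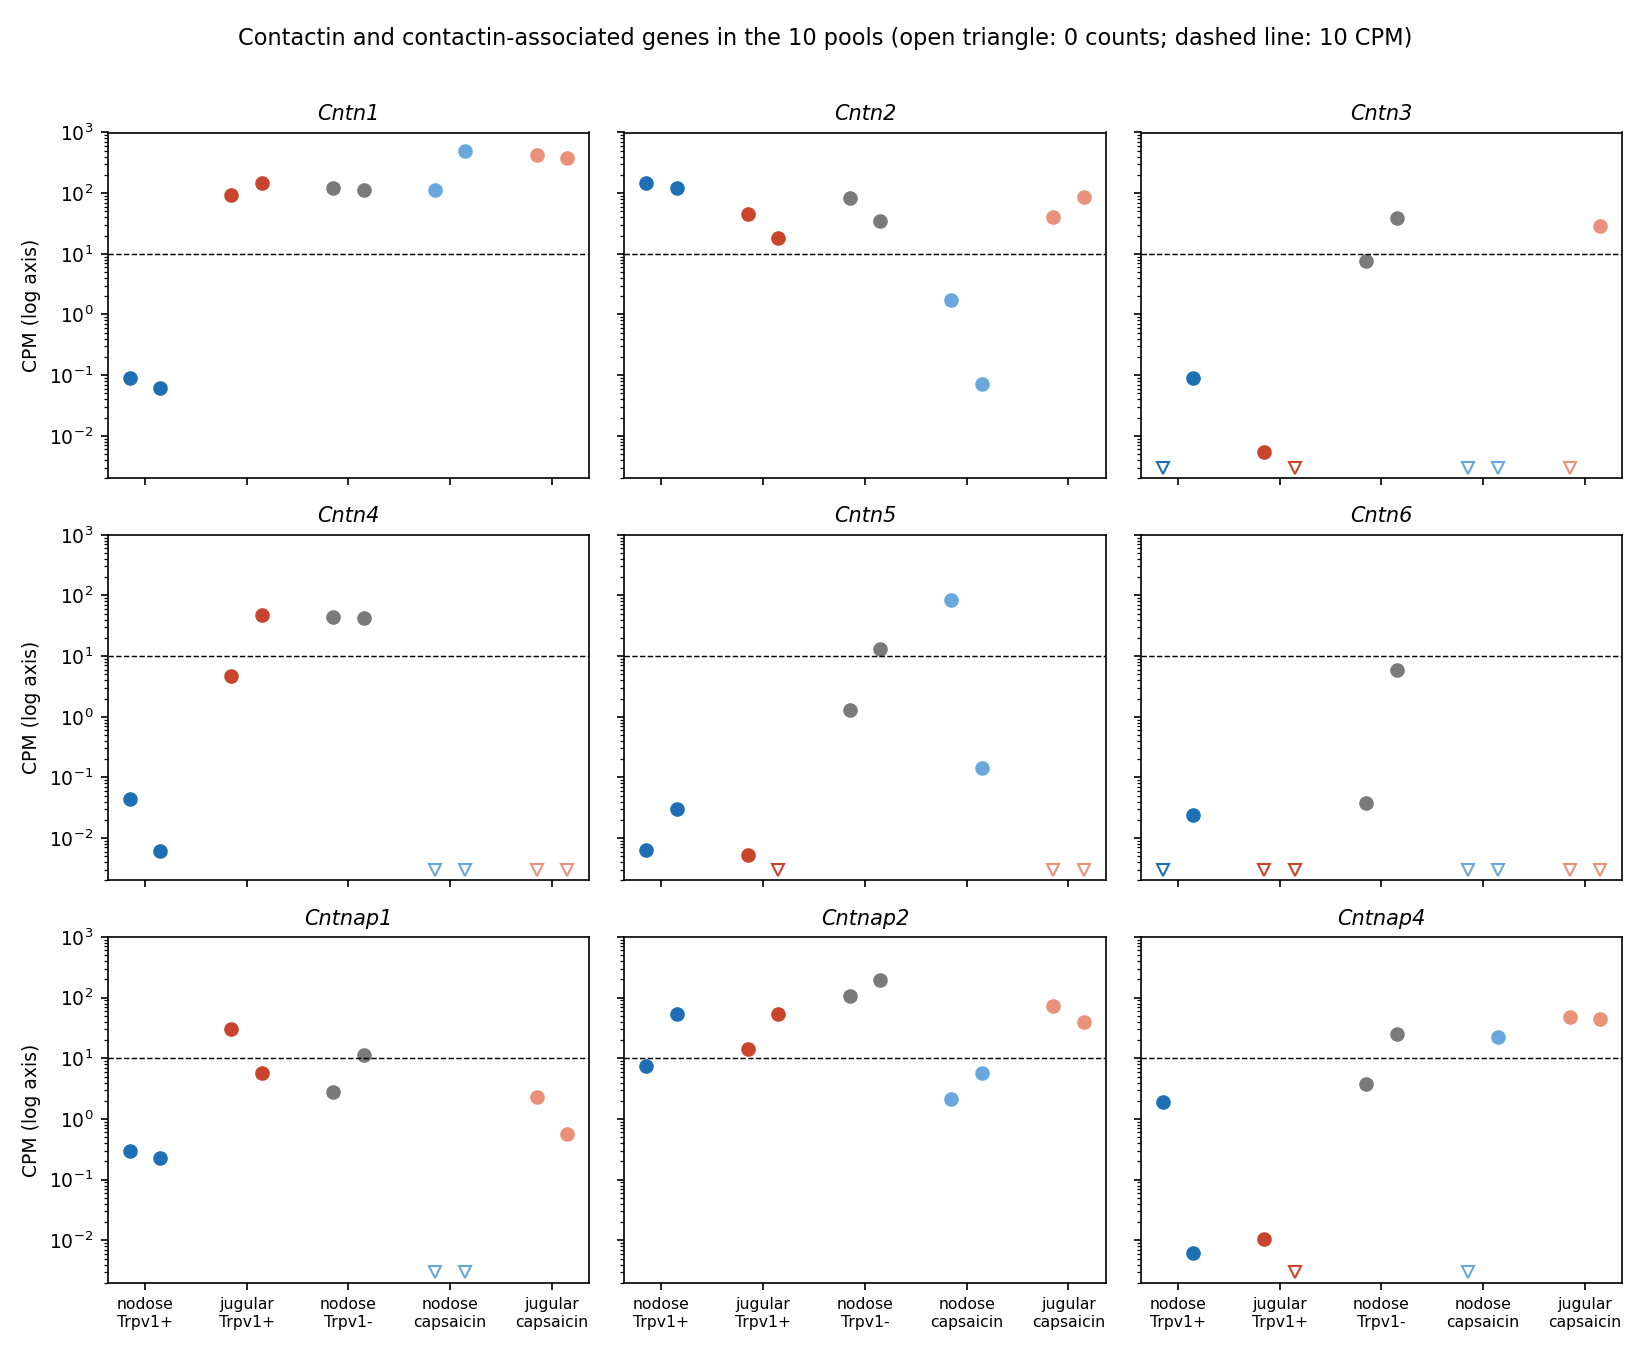
Levels of the 9 genes in CPM (log axis) in each of the 10 pools, with 2 points for each of the 5 groups. Open triangles mark pools with 0 counts and the dashed line marks 10 CPM. *Cntn1* is near 0.1 CPM in the Trpv1-positive nodose pools and above 90 CPM in the other 8, whereas *Cntn2* is highest in those nodose pools and lowest in the nodose capsaicin pools.

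The make-up of the family was compared per kilobase of exon, which allows levels of different genes to be set side by side. Trpv1-positive nodose neurons held mostly *Cntn2*, with 93.4% and 71.7% of the summed CPM per kb of the 9 genes in their 2 pools, and *Cntnap2* was the second gene with 4.31% and 28.0%. In Trpv1-positive jugular neurons *Cntn1* led with 45.1% and 53.0%, and in jugular capsaicin neurons *Cntn1* led with 69.6% and 62.3%. The nodose capsaicin pools were unlike each other: *Cntn5* held 59.4% of the first and *Cntn1* held 92.6% of the second. The Trpv1-negative nodose pools had the most even mixture, led by *Cntn1* with 32.5% in pool 1 and by *Cntnap2* with 34.7% in pool 2. The number of the 9 genes at 10 CPM or more was 1 and 2 in the Trpv1-positive nodose pools, 4 and 4 in the Trpv1-positive jugular pools, 2 and 2 in the nodose capsaicin pools, 4 and 5 in the jugular capsaicin pools, and 4 and 8 in the Trpv1-negative nodose pools. *Cntn1* and *Cntn2* thus made up the larger share in most pools, and which of them led differed between the groups.

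**Figure D2:**
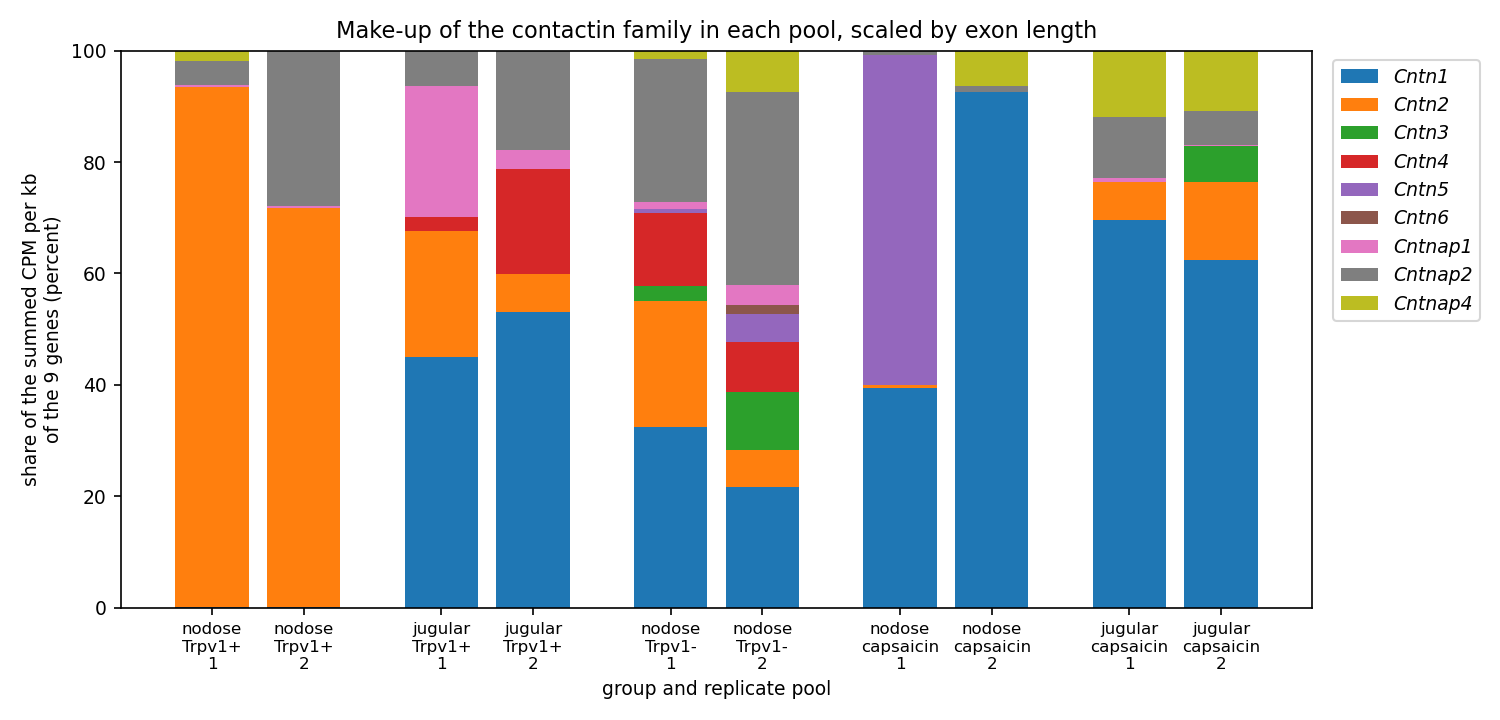
Share of each gene, in percent, in the summed CPM per kb of the 9 genes, with 1 stacked bar per pool. *Cntn2* fills 93.4% and 71.7% of the bars of the Trpv1-positive nodose pools, and *Cntn1* leads in all 4 jugular pools.

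*Cntn1* encodes the contactin of the paranode, which also binds sodium channels and raises their density at the membrane. The gene (ENSMUSG00000055022.14) lies on the plus strand at chr15:92051165-92341967 of GRCm38. It had 14 and 10 counts in the Trpv1-positive nodose pools, or 0.0893 and 0.0607 CPM. In the Trpv1-positive jugular pools it stood at 93.5 and 145.7 CPM, and in the Trpv1-negative nodose pools at 123.6 and 113.6 CPM. Capsaicin-selected nodose neurons had 114.1 and 486.7 CPM, and jugular ones 421.9 and 385.2 CPM. The near absence was therefore seen in the Trpv1-positive nodose pools and in no other group, and the nodose capsaicin pools, which come from the same ganglion and also had *Trpv1* (264.1 and 307.3 CPM), had *Cntn1* above 100 CPM. Pool 2 of the nodose capsaicin group had the smallest size factor, and its *Cntn1* level was 218.0 CPM when divided by its plain total instead. Every other level above 0 given for that pool is likewise lower with the plain total.

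The mean of *Cntn1* was 0.0750 ± 0.0202 CPM (SD, n = 2) in Trpv1-positive nodose and 119.6 ± 36.9 CPM (SD, n = 2) in Trpv1-positive jugular neurons, a ratio of 1594. The log2 fold change was -10.64 with a standard error of 1.31, and the adjusted p of edgeR's quasi-likelihood test with Benjamini-Hochberg adjustment was 0.11, short of the threshold of 0.1. The gene was called by DESeq2 (adjusted p = 2.8e-10) and by the edgeR fit that takes its spread from all 10 pools (adjusted p = 0.0055). Against the Trpv1-negative nodose pools the log2 fold change was -10.59 with a standard error of 1.21 and an adjusted p of 0.31 by edgeR, 1.5e-10 by DESeq2 and 0.014 in the edgeR fit of all 10 pools. These 2 comparisons share the Trpv1-positive nodose pools. The nodose and jugular pools of the capsaicin selection overlapped, with a log2 fold change of -0.88, a standard error of 0.81 and an edgeR adjusted p of 0.95. The difference between the 2 selections in the nodose-jugular contrast, fitted as an interaction, was -9.68 on the log2 scale with a standard error of 1.39 and an edgeR adjusted p of 0.16. DESeq2 called that interaction at an adjusted p of 2.3e-08.

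*Cntn2*, the juxtaparanodal contactin, had the reverse order in the Trpv1 selection. The gene (ENSMUSG00000053024.14) lies on the minus strand at chr1:132509427-132543256. The level was 145.0 and 123.6 CPM in Trpv1-positive nodose, 46.2 and 18.4 CPM in Trpv1-positive jugular and at 84.4 and 35.4 CPM in Trpv1-negative nodose neurons. Capsaicin-selected nodose neurons held 1.70 and 0.0725 CPM, from 33 counts and 1 count, against 41.1 and 86.1 CPM in the jugular ones. The nodose pools were therefore the higher ones under the Trpv1 selection and the lower ones under the capsaicin selection, with no overlap in either. Of 7741 genes tested in both selections, 443 (5.72%) had such opposite orders without overlap and 1004 (13%) had the same order without overlap.

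The nodose mean of *Cntn2* was 4.16 times the jugular mean in the Trpv1 selection, with a log2 fold change of 2.05, a standard error of 0.79 and an edgeR adjusted p of 0.41. Under the capsaicin selection the jugular mean was 71.6 times the nodose mean, with a log2 fold change of -6.37, a standard error of 2.91 and an edgeR adjusted p of 0.44, and DESeq2 called the gene there (adjusted p = 0.057). Its mean in Trpv1-positive nodose neurons was 2.24 times that in Trpv1-negative ones, with a log2 fold change of 1.18, a standard error of 0.69 and an edgeR adjusted p of 0.69. For the interaction of ganglion and selection the log2 value was 8.46 with a standard error of 2.61 and an edgeR adjusted p of 0.48, whereas DESeq2 gave an adjusted p of 0.0017.

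*Cntnap1*, the paranodal partner of contactin-1, was low in most pools. It lies at chr11:101170523-101190724 on the plus strand, and 3.97% of its exon bases overlap *Plekhh3* on the other strand. It was at 0.3 and 0.225 CPM in Trpv1-positive nodose, at 30.4 and 5.83 CPM in Trpv1-positive jugular and at 2.82 and 11.6 CPM in Trpv1-negative nodose neurons. The nodose capsaicin pools had 0 counts, which by counting error alone allows up to 0.155 and 0.217 CPM at 3 counts. The jugular capsaicin pools had 48 and 11 counts, or 2.33 and 0.568 CPM. *Cntnap1* was the one member tested whose nodose pools lay below the jugular pools in both selections, an order seen in 5.41% of the 11959 genes tested. The log2 fold change over both selections was -7.14 with a standard error of 2.61 and an edgeR adjusted p of 0.36. DESeq2 gave -6.41 with a standard error of 1.25 and an adjusted p of 4.9e-06, but the gene did not reach 10 CPM in both pools of any group and so was not called. *Cntn1* and *Cntnap1*, the paranodal pair, did not go together in the capsaicin selection, where *Cntn1* was at 114.1 CPM or more in every pool and *Cntnap1* at 2.33 CPM or less.

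*Cntnap2*, the juxtaparanodal partner of contactin-2, spans 2244857 bases at chr6:45059357-47304213. It was highest in the Trpv1-negative nodose pools, at 106.0 and 198.7 CPM. In the Trpv1-positive pools it was at 7.37 and 53.1 CPM in nodose and at 14.3 and 53.2 CPM in jugular neurons, which overlapped. The nodose capsaicin pools held 2.17 and 5.72 CPM and the jugular capsaicin pools 72.8 and 40.4 CPM. The log2 fold change of nodose over jugular was -0.16 with a standard error of 1.60 under the Trpv1 selection (edgeR adjusted p = 0.995) and -4.25 with a standard error of 2.31 under the capsaicin selection (edgeR adjusted p = 0.59). Its sign under the Trpv1 selection turned when pool 1 of the nodose or pool 2 of the jugular group was left out, to 0.66 and 1.07. Trpv1-negative nodose neurons had 5.04 times the mean of Trpv1-positive ones, with a log2 fold change of -2.28 for positive over negative, a standard error of 1.09 and an edgeR adjusted p of 0.58. Contactin-2 and Caspr2 transcripts were both low in the nodose capsaicin pools, but in Trpv1-positive nodose neurons *Cntn2* was at its highest while *Cntnap2* was not.

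*Cntn4*, a contactin of olfactory and visual axon wiring, resembled *Cntn1* within the Trpv1 selection. The gene covers 1021651 bases at chr6:105677660-106699310. It had 7 counts and 1 count in the Trpv1-positive nodose pools, 4.62 and 46.8 CPM in the Trpv1-positive jugular pools and 44.8 and 42.0 CPM in the Trpv1-negative nodose pools. All 4 capsaicin pools had 0 counts, with limits at 3 counts between 0.146 and 0.217 CPM. These limits cover counting error only, and fewer genes were found in the capsaicin pools than in the others. *Cntn1* was thus counted without *Cntn4* in all 4 pools, and the part of missed transcripts in the zeros was not tested. The log2 fold change of Trpv1-positive over Trpv1-negative nodose neurons was -10.69 with a standard error of 2.44, with an adjusted p of 0.37 by edgeR and 7.9e-08 by DESeq2, which called it. The log2 fold change of nodose over jugular neurons in the Trpv1 selection was -9.97 with a standard error of 3.13 and an adjusted p of 0.33 by edgeR and 1.6e-05 by DESeq2, which did not call it because neither group had 10 CPM in both pools.

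The sequences upstream of *Cntn1* and *Cntn4* are shown because these 2 genes shared near absence in the Trpv1-positive nodose pools. Each is the 250 bases before the first transcription start that RefSeq lists for the gene (GRCm38.p6, plus strand), at chr15:92050915-92051164 for *Cntn1* and at chr6:106118515-106118764 for *Cntn4*, where the start lies inside the longer span of the gene. RefSeq promoters were matched for 7 of the 9 genes. Among them *Cntn3*, *Cntn5* and *Cntn6* also had 15 counts or fewer in each Trpv1-positive nodose pool, and their sequences are not shown. Capitals mark the motifs CCAAT in *Cntn1* and CANNTG (the E-box) in *Cntn4*, searched on both strands.
Cntn1: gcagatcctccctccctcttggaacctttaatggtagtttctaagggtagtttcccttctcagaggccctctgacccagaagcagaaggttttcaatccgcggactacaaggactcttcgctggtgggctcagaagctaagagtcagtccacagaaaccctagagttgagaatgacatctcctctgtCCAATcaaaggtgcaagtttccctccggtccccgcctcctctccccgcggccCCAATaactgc
Cntn4: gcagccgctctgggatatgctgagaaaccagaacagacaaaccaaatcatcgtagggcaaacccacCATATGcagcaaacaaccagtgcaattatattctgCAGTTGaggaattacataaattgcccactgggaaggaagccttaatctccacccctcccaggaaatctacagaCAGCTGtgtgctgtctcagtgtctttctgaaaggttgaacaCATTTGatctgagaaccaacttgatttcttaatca
The *Cntn1* window held 2 CCAAT motifs and no E-box, and the *Cntn4* window held 4 E-boxes and no CCAAT motif. Of 32851 mouse promoters of the same length, 33.8% held CCAAT and 66.2% held CANNTG. The GC content was 53.6% for *Cntn1* and 44.4% for *Cntn4*, beside a median of 52.4% over all promoters, so the 2 windows shared neither motif. A motif match describes the letters and does not show a bound site.

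*Cntn3*, *Cntn5* and *Cntn6* were found mainly in Trpv1-negative nodose neurons or in a lone pool. *Cntn3* was at 7.64 and 39.0 CPM in the Trpv1-negative nodose pools and at 28.7 CPM in pool 2 of the jugular capsaicin neurons, and it had 15 counts or fewer in each of the other 7 pools. *Cntn5*, of which 6.40% of exon bases overlap an antisense gene, was at 82.7 CPM in pool 1 of the nodose capsaicin neurons but had 2 counts in pool 2. It was at 1.32 and 13.1 CPM in the Trpv1-negative nodose pools and had 5 counts or fewer in the other 6 pools. *Cntn6* was at 0.0383 and 5.90 CPM in the Trpv1-negative nodose pools, with at most 4 counts elsewhere, and it was not tested in any main fit. For all 3 genes the 2 Trpv1-negative pools differed widely, with pool 2 the higher each time.

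For these genes the Trpv1-negative mean was 511.7 times the Trpv1-positive nodose mean for *Cntn3*, 391.2 times for *Cntn5* and 244.5 times for *Cntn6*, ratios that rest on 15, 6 and 4 counts in the Trpv1-positive pools. The edgeR adjusted p was 0.45 for *Cntn3* and 0.40 for *Cntn5*. DESeq2 gave adjusted p of 0.0023 for *Cntn3*, 0.00029 for *Cntn5* and 0.033 for *Cntn6*. None was called, because neither group had 10 CPM in both pools. In the capsaicin selection the DESeq2 adjusted p was 8.6e-09 for *Cntn3*, lower in nodose, and 0.0043 for *Cntn5*, higher in nodose. Each of these rests on a lone high pool and was not called.

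*Cntnap4* had its highest levels in the capsaicin-selected jugular pools, at 47.8 and 44.6 CPM, and was at 22.2 CPM in pool 2 of the nodose capsaicin neurons, while pool 1 had 0 counts. Divided by the plain total, the level in that nodose pool 2 was 9.93 CPM, short of 10 CPM. The Trpv1-positive pools held 1.94 and 0.00607 CPM in nodose neurons, and 2 and 0 counts in jugular neurons. The Trpv1-negative nodose pools held 3.77 and 25.7 CPM. The gene lies at chr8:112570043-112882717, and 8.01% of its exon bases overlap an antisense gene. The jugular capsaicin mean was 4.17 times the nodose capsaicin mean, with a log2 fold change of -2.58 for nodose over jugular, a standard error of 3.26 and an edgeR adjusted p of 0.9999. Jugular neurons thus had *Cntnap4* under the capsaicin selection and at most 2 counts under the Trpv1 selection. In that contrast strain, selection, sequencing core, depth and pool size also differ.

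Other Caspr rows were close to silent. *Cntnap3* had no count in any pool, and *Cntnap5a* and *Cntnap5b* had at most 11 and 3 counts, all in Trpv1-negative nodose pools. *Cntnap5c* had 1549 counts (7.41 CPM) in pool 1 of the Trpv1-negative nodose neurons and 0 in every other pool.

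**Figure D3:**
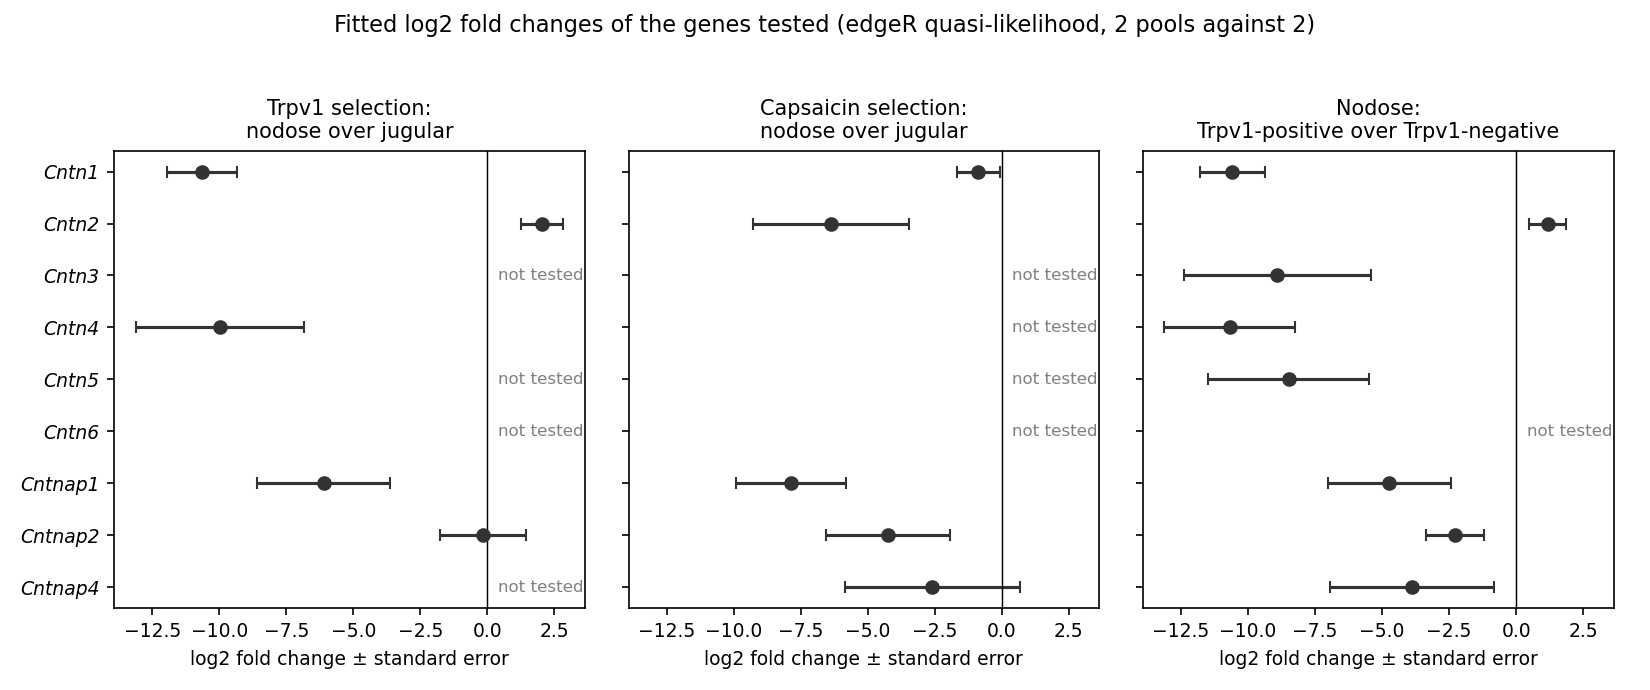
Fitted log2 fold changes (points) with standard errors (bars) in 3 comparisons of 2 pools against 2, by edgeR, for the 5, 5 and 8 of the 9 genes that were tested. *Cntn1* stands at -10.64 and -10.59 in the comparisons that hold the Trpv1-positive nodose pools and at -0.88 in the capsaicin selection, and *Cntn2* turns from 2.05 to -6.37 between the selections.

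For a call, the adjusted p had to be 0.1 or less and the change 2-fold or more, with 10 CPM reached in both pools of a group. By edgeR, 0 members were called in each of the 5 contrasts, in which 5, 5, 8, 6 and 6 of the 9 were tested. The share called over all genes tested was 0.318% for nodose against jugular in the Trpv1 selection, 0% in the capsaicin selection, 0.0527% for Trpv1-positive against Trpv1-negative nodose, 0.577% for nodose against jugular over both selections and 0% for the interaction. At an unadjusted p under 0.05, the same edgeR fits held 3, 1, 4, 1 and 2 of the 5, 5, 8, 6 and 6 members tested. Over all genes tested the numbers were 1305 of 10990, 1150 of 8181, 1264 of 11386, 1333 of 11959 and 1233 of 11959. Members were chosen with these contrasts known, and those tested passed the low-count filter through the group where they were high. Nothing is therefore read from these member counts. DESeq2 called 1 member (*Cntn1*), 1 (*Cntn2*), 2 (*Cntn1* and *Cntn4*), 1 (*Cntn1*) and 2 (*Cntn1* and *Cntn2*), beside 3.81%, 7.44%, 2.63%, 8.82% and 9.04% of all genes. DESeq2 gave an adjusted p for 7, 7, 9, 8 and 8 of the 9 members. The edgeR fit of all 10 pools called *Cntn1* in the Trpv1 selection and in the nodose comparison, beside 0.201% and 0.054% of all genes, and no member in the capsaicin selection, beside 0.857%.

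The order of the pools was also counted. Without overlap and lower in nodose neurons were 3 members in the Trpv1 selection (*Cntn1*, *Cntn4* and *Cntnap1*), beside 21.6% of all genes tested, with *Cntn2* higher, beside 20.5%, and 4 in the capsaicin selection (*Cntn2*, *Cntnap1*, *Cntnap2* and *Cntnap4*), beside 23.4%. Of the 8 members tested between Trpv1-positive and Trpv1-negative nodose pools, 7 lay lower in the positive pools, beside 22.4% of all genes, and *Cntn2* lay higher, beside 18.4%. The members were chosen on these contrasts and those tested passed the low-count filter through the group where they were high, so nothing is read from these counts.

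*Nefh*, the heavy neurofilament of large myelinated neurons, was at 665.9 and 592.8 CPM in the Trpv1-negative nodose pools and at 97.7 and 208.5 CPM in the Trpv1-positive nodose pools. It was at 295.4 and 374.8 CPM in the Trpv1-positive jugular pools. The A-fibre markers *Nefh*, *Nefm*, *Piezo2* and *Pvalb* summed to 1776 and 1713 CPM in Trpv1-negative nodose, to 1361 and 1486 CPM in Trpv1-positive jugular and to 684.4 and 672.2 CPM in Trpv1-positive nodose pools. The sums, carried mainly by *Nefh* and *Nefm*, were thus higher in the groups of the Trpv1 selection that had *Cntn1* and *Cntn4*, while *Pvalb* had 0 counts in pool 1 of both of those groups. *Piezo2* was at 13.4 and 10.7 CPM in Trpv1-negative nodose and at 54.6 and 98.9 CPM in Trpv1-positive jugular pools. It had 2 and 4 counts in the Trpv1-positive nodose pools, and 1 and 4 counts in the nodose capsaicin pools, which had *Cntn1*. The C-fibre marker *Prph* was at 4076 and 3769 CPM in Trpv1-negative nodose and at 4495 and 3938 CPM in Trpv1-positive jugular pools. It was at 4406 and 4387 CPM in Trpv1-positive nodose pools. *Scn10a*, also of C-fibres, was at 201.5 and 134.2, 170.6 and 410.1, and 228.2 and 264.2 CPM in the same order. *Trpv1* itself was at 250.5 and 146.0 CPM in Trpv1-positive nodose and at 22.1 and 31.95 CPM in Trpv1-positive jugular pools. The part of these markers in the difference was not tested. Among the capsaicin pools the nodose sums were 128.0 and 836.7 CPM and the jugular sums 538.7 and 505.3 CPM, and *Cntn1* was above 100 CPM in all 4 pools.

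The molecules that work beside the contactins were read from 3 lists: 12 genes of the paranode and node, 14 of the juxtaparanode and 12 ligands and binding partners. No listed gene was called by edgeR in any of the 5 contrasts, and DESeq2 called 2, 2 and 0 genes of the 3 lists under the Trpv1 selection, 0, 1 and 0 under the capsaicin selection and 1, 1 and 0 between Trpv1-positive and Trpv1-negative nodose neurons, all of them lower in the first-named group. Over both selections DESeq2 called *Nrcam* and *Ncam1* higher and *Scn4b*, *Kcna1*, *Kcna2* and *Ptprz1* lower in nodose neurons, and for the interaction it called *Ptprg* higher and *Nrcam* and *Sptbn4* lower. The share of all genes that DESeq2 called was 3.81%, 7.44%, 2.63%, 8.82% and 9.04% in the 5 contrasts. In the Trpv1 selection the median log2 fold change of nodose over jugular neurons was 0.016 over the 12 paranodal and nodal genes tested, -1.33 over 12 juxtaparanodal genes and 0.87 over 11 ligands, beside 0.03 over all genes. Between Trpv1-positive and Trpv1-negative nodose neurons the medians were -0.81, -1.06 and 0.24, beside 0.01 over all genes. In the capsaicin selection they were 0.27, -1.52 and -0.03, beside -0.02 over all genes, with 8, 8 and 7 genes tested.

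Within the juxtaparanodal list, *Kcna1*, the Kv1.1 potassium channel that contactin-2 and Caspr2 cluster, had the largest log2 fold change among the genes at 10 CPM in the Trpv1 selection. It had 4 and 6 counts in the Trpv1-positive nodose pools, 143.5 and 52.1 CPM in the Trpv1-positive jugular pools and 57.3 and 31.2 CPM in the Trpv1-negative nodose pools. The capsaicin pools had 0 counts and 1 count in nodose and 36.4 and 0.465 CPM in jugular neurons. Its log2 fold change of nodose over jugular was -11.59 with a standard error of 1.65 in the Trpv1 selection, with an adjusted p of 0.16 by edgeR and 2.2e-10 by DESeq2. *Kcna1* thus followed *Cntn1* in the Trpv1 selection but was near 0 in nodose capsaicin neurons, which had *Cntn1*. *Kcna2*, the Kv1.2 channel, was at 16.8 and 32.1 CPM in Trpv1-positive nodose and at 108.9 and 24.0 CPM in Trpv1-positive jugular neurons, which overlapped. It was at 0.568 and 2.83 CPM in nodose capsaicin and at 48.9 and 76.8 CPM in jugular capsaicin neurons, where DESeq2 called it (log2 fold change -5.57, adjusted p = 0.071) and edgeR gave an adjusted p of 0.40. *Lgi3* encodes a secreted ligand of the ADAM receptors beside the Kv1 channels. It was at 0.695 and 0.0122 CPM in Trpv1-positive nodose and at 32.5 and 37.6 CPM in Trpv1-positive jugular neurons. The Trpv1-negative nodose pools held 5.36 and 72.7 CPM, and every capsaicin pool had 0 counts. Its log2 fold change of nodose over jugular in the Trpv1 selection was -6.65, with an adjusted p of 0.45 by edgeR and 0.011 by DESeq2. *Dlg4*, the PSD-95 scaffold, had a log2 fold change of 2.81 (edgeR adjusted p = 0.76) and *Kcnab1*, a Kv1 beta subunit, one of 3.25 (edgeR adjusted p = 0.32) in the same contrast.

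Within the paranodal and nodal list, *Sptbn4*, the spectrin of the node and axon initial segment, had 2 and 16 counts in Trpv1-positive nodose pools, 13.3 and 37.8 CPM in Trpv1-positive jugular pools and 12.5 and 48.3 CPM in Trpv1-negative nodose pools. Its log2 fold change of nodose over jugular was -8.84 (adjusted p = 0.33 by edgeR and 2.2e-05 by DESeq2) and that of Trpv1-positive over Trpv1-negative nodose was -9.03 (0.37 and 1.7e-05). Of the capsaicin pools it was found in 1, at 65.3 CPM in pool 2 of the nodose neurons. *Scn4b*, a sodium channel beta subunit, was at 4.43 and 0.0304 CPM in Trpv1-positive nodose and at 102.3 and 77.7 CPM in Trpv1-positive jugular neurons, and at 6.34 and 0.145 CPM in the Trpv1-negative nodose pools. It thus separated the ganglia in the Trpv1 selection (log2 fold change -5.35, adjusted p = 0.49 by edgeR and 0.086 by DESeq2) and, unlike *Cntn1*, was low in Trpv1-negative nodose neurons too. *Nfasc*, whose glial isoform is the ligand of the contactin-1 and Caspr pair, ranged from 0 to 147.5 CPM, with log2 fold changes of 2.77 in the Trpv1 and 1.78 in the capsaicin selection and edgeR adjusted p-values of 0.80 and 0.9999. *Epb41l3*, which encodes the protein 4.1B that ties Caspr proteins to the cytoskeleton, lay between 243.0 and 892.1 CPM in all 10 pools. The transcript of this cytoplasmic partner was thus present where *Cntn1*, *Cntnap1* or *Cntnap2* was low.

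**Figure D4:**
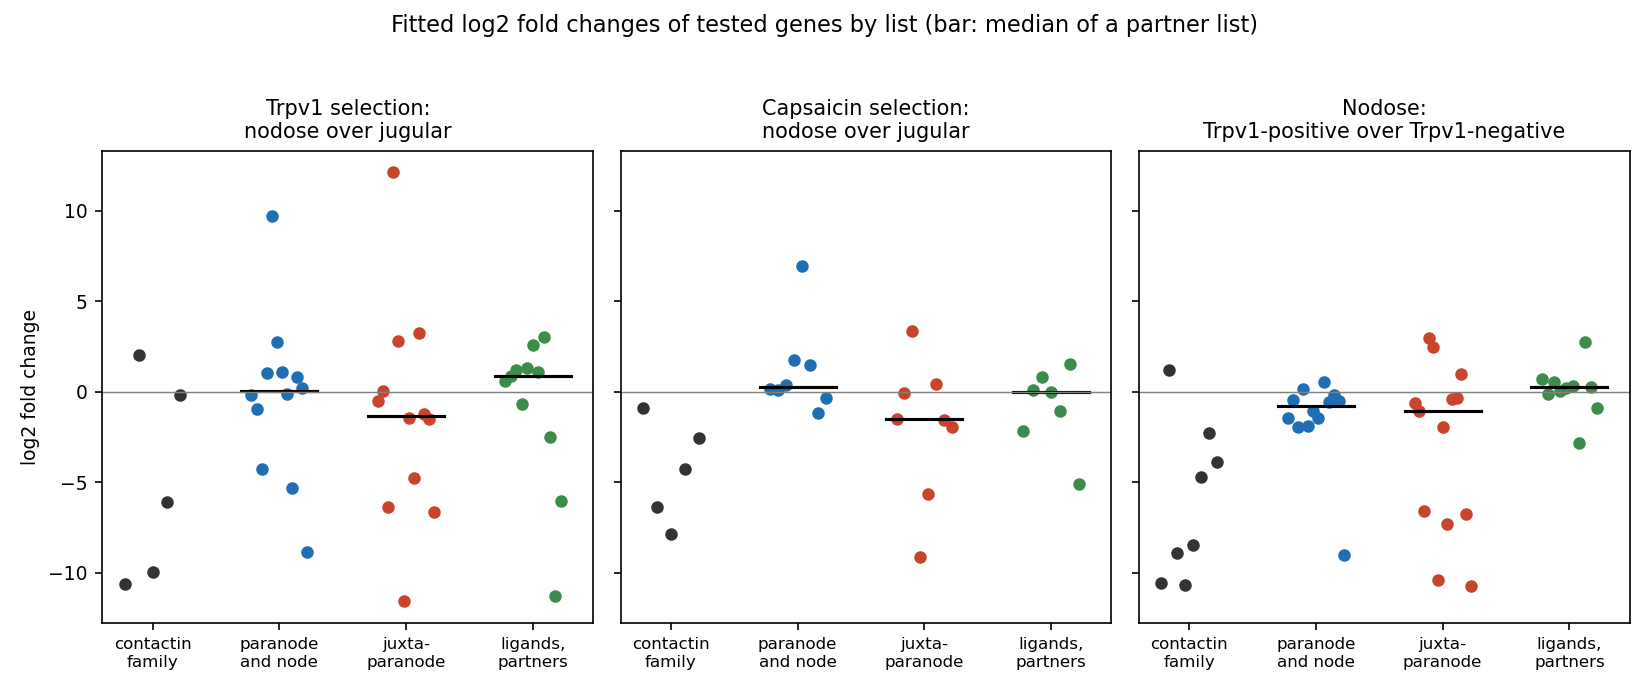
Log2 fold changes of the tested genes of the contactin family and of 3 lists of partners in 3 comparisons, with bars at the median of each partner list. In the Trpv1 selection the medians are 0.016 for the paranode and node, -1.33 for the juxtaparanode and 0.87 for the ligands.

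Among ligands and binding partners, *Ncam1*, a neural adhesion molecule, was at 265.6 and 201.3 CPM in Trpv1-positive nodose and at 47.2 and 30.1 CPM in Trpv1-positive jugular neurons. Under the capsaicin selection it was at 1030 and 3863 CPM in nodose against 572.3 and 684.7 CPM in the jugular pools. The nodose pools lay above the jugular pools in both selections, with log2 fold changes of 2.59 and 1.51 and edgeR adjusted p-values of 0.32 and 0.43, and over both selections the value was 2.09 with a standard error of 0.45 and an adjusted p of 0.11 by edgeR and 0.0089 by DESeq2. *Ptprz1*, a receptor phosphatase that binds contactin-1, was at 2.87 and 8.75 CPM in Trpv1-positive nodose and at 21.2 and 45.9 CPM in Trpv1-positive jugular neurons (log2 fold change -2.53, edgeR adjusted p = 0.75). *Ptprg*, the phosphatase that binds contactins 3 to 6, had a log2 fold change of -5.13 in the capsaicin selection (edgeR adjusted p = 0.77), from 1.60 and 0 CPM in nodose against 31.4 and 18.7 CPM in jugular neurons. *L1cam* and *Chl1*, adhesion molecules of the L1 family, and *App*, the amyloid precursor that contactins bind, were present in every pool, with *L1cam* between 83.8 and 380.7 CPM.

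Further differences of listed genes at 10 CPM are given here by contrast. In the Trpv1 selection the log2 fold change of nodose over jugular was 1.31 for *L1cam*, 1.21 for *Chl1* and 1.08 for *Nrcam*, the adhesion molecule of the node. In the capsaicin selection it was -1.95 for *Lgi1*, -1.54 for *Kcnab2* and -1.51 for *Adam22* of the juxtaparanode, 1.49 for *Scn2b*, -1.19 for *Sptan1* and 0.36 for *Epb41l3* of the paranode and node, and -2.19 for *Aplp1* and -1.07 for *L1cam* of the ligands. For Trpv1-positive over Trpv1-negative nodose neurons it was 2.48 for *Dlg4*, -1.95 for *Kcna2*, -1.06 for *Adam23*, -1.47 for *Nrcam*, -1.43 for *Ank2*, -1.06 for *Nfasc*, 0.68 for *Aplp1*, 0.55 for *Chl1*, 0.29 for *Ncam1* and 0.25 for *Ptprg*. Their edgeR adjusted p-values lay at 0.37 or above, so none of these differences passed the test.

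The genes whose pattern was most like that of a member were sought among 7842 genes with at least 10 CPM in both pools of a group, by Pearson's r of log2(CPM + 1) over the 10 pools after each selection was centred, as a description. For *Cntn1* these were *Twf2* (r = 0.974), *Oaf* (0.96) and *Ankrd39* (0.955), each with at most 0.606 CPM in the Trpv1-positive nodose pools and at most 0.535 CPM in the capsaicin pools, where *Cntn1* itself was high. For *Cntn2* they were *Vps4b* (0.976), *Tm7sf2* (0.969) and *Exosc5* (0.967), and the last 2 had 0 counts in both nodose capsaicin pools. *Cntn4* was closest to *Spsb1* (0.993), *Zfx* (0.978) and *Inpp5j* (0.977), which all had 0 counts in the capsaicin pools. *Cntnap2* was closest to *Acsl6* (0.951), *Socs5* (0.942) and *Ttc19* (0.941), and *Cntnap4* to *Copg2* (0.906), *1810013L24Rik* (0.899) and *Klhl22* (0.888). The 10 pools share 2 selections and depths, and between 1 and 33 genes had an r above 0.9 for a given member.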

How the data were processed

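The authors sequenced cDNA of the pools, made with an ultra-low-input kit primed on poly(A), as paired ends. Per the labels and the methods of the study, reads were demultiplexed with CASAVA 1.8.2 and aligned to the mouse genome mm10 with TopHat2 2.0.9 and Bowtie2 2.1.0.0, and counted per gene with HTSeq. The gene annotation and the strand setting of the counting are not given in the sources used here, so reads of antisense genes cannot be told apart from those of the members. The deposited values were raw counts for 24421 gene symbols in each of 10 pools, in which 2 symbols that had become dates were each repeated and were kept apart. Reads without molecular identifiers are not independent molecules, so limits at 3 counts cover counting error only.

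Pools were grouped by their GEO labels. The members and the lists were chosen with earlier results of these data known. Levels are counts divided by DESeq2 size factors of all 10 pools, given as CPM. Each comparison was fitted on its own pools with edgeR 4.0.16 in R 4.3.3 (TMM, filterByExpr, quasi-likelihood F test, Benjamini-Hochberg adjustment over all genes tested), and nodose was compared with jugular over both selections with selection as a covariate and as an interaction. For a call, the adjusted p had to be 0.1 or less and the change 2-fold or more, with 10 CPM in both pools of a group. DESeq2 1.42.0, its size factors within edgeR, no filter on low counts, the replicate number as a block, all 10 pools in 1 fit and leaving out each pool in turn were alternatives. On simulated counts, both tools recovered the changed genes where the spread between pools was low. Where it was high, edgeR missed many of them, nearly all with 2 pools against 2. The calls of DESeq2 held a larger share of unchanged genes than those of edgeR at either spread. Both spreads were set beforehand and not taken from these pools, so recovery in the real data may differ. Named were all 9 members, the other Caspr rows, the markers and, of each list and comparison, called genes and the 4 or fewer with the largest log2 fold change at 10 CPM, with 3 most similar genes for each member at 10 CPM in both pools of a group. From the lists, 2 further genes were left out and are not reported here. *App*, *Epb41l3* and the sums of markers were shown as levels after their values had been seen. Exon lengths and positions are from GENCODE vM21 (GRCm38) and promoters from RefSeq.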

Additional observations from a re-analysis of the deposited data

Results flagged for a closer look

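*Cntn2* stood out because the nodose and jugular pools had opposite orders in the 2 selections, with no overlap in either: nodose neurons held 145.0 and 123.6 CPM against 46.2 and 18.4 CPM under the Trpv1 selection, and 1.70 and 0.0725 CPM against 41.1 and 86.1 CPM under the capsaicin selection. The interaction was 8.46 on the log2 scale (standard error 2.61) and missed the threshold by edgeR (adjusted p = 0.48), while DESeq2 gave an adjusted p of 0.0017. Opposite orders without overlap were seen in 443 of 7741 genes (5.72%). Strain, way of selection, sequencing core, depth and pool size differ between these pools of the 2 selections and cannot be told apart.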

How the results depend on the processing

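With 2 pools a group, the number of genes called depended on the tool. In the order nodose against jugular in the Trpv1 selection, the same in the capsaicin selection, Trpv1-positive against Trpv1-negative nodose, nodose against jugular over both selections, and the interaction, edgeR called 35, 0, 6, 69 and 0 genes. DESeq2 called 506, 800, 372, 1215 and 1191. Without the low-count filter edgeR called 59, 122, 10, 222 and 95. The fit of all 10 pools called 111 genes in the capsaicin selection. With 1 pool left out, a lone pool being assumed to vary like the other group, the counts ran from 0 to 0, 0 to 29, 0 to 0, 38 to 89 and 0 to 195. The highest values of 29 and 195 came without pool 1 of the nodose capsaicin group, where the interaction of *Cntn2* was 12.36 and was called (edgeR adjusted p = 0.085). The causes of these differences were not tested.

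Of the members, edgeR called 0 in each contrast, and DESeq2 called 1, 1, 2, 1 and 2. Without the filter, edgeR called 1 in the Trpv1 selection, 1 over both selections and 1 for the interaction, each time *Cntn1* (adjusted p of 0.062, 0.011 and 1.6e-05). The fit of all 10 pools called 1 in the Trpv1 selection and 1 in the nodose comparison. With a pool left out, between 0 and 2 members were called for the interaction, and *Cntn1* was called there without either pool of the Trpv1-positive jugular or of the nodose capsaicin group (edgeR adjusted p between 0.025 and 0.090). Of 305 log2 fold changes of members under the alternatives, 281 kept their direction and their side of the threshold, 17 came to pass it and 7 turned sign. With each pool left out in turn, those 3 genes ranged as follows. *Cntnap2* in the Trpv1 selection lay between -2.22 and 1.07, with the sign turned in 2 fits (0.66 and 1.07). Over both selections, *Cntn2* lay between -4.77 and 0.56, turned without pool 1 or 2 of the nodose capsaicin group (0.51 and 0.56), and *Cntnap4* between -1.52 and 5.58, turned without pool 1 of the Trpv1-positive nodose or pool 1 or 2 of the Trpv1-positive jugular group (-1.52, -0.99 and -1.01). The number of gene and group pairs at 10 CPM in both pools was 13, and 14 with plain totals.

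The deviations of same-numbered pools correlated between -0.0159 and 0.0172. Pools of the same group differed widely from each other, with Pearson's r between 0.463 and 0.763. Such spread can hide a shared mouse, so these correlations cannot decide whether the replicate numbers pair the pools. With the replicate number as a block, 13, 20, 1, 41 and 0 genes and 0 members were called.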
